A study of Mus musculus with 4 samples.

Results

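Intermediate filament and lamin genes were examined in C2C12 cells, an established mouse myoblast line, after knockdown of *Hnrnpl*. The 9 genes were listed by name (*Vim*, *Des*, *Nes*, *Nefl*, *Nefm*, *Synm*, *Lmna*, *Lmnb1* and *Lmnb2*) and were looked up by symbol among the 56748 gene IDs counted in each library, and all 9 were found. RNA molecules had been read directly on nanopores, and the value of a gene is the number of reads assigned to it. The scrambled group (2 libraries) carried a non-targeting shRNA plasmid, and the knockdown group (2 libraries) carried plasmids for 3 shRNAs against *Hnrnpl* given together. Both groups had the WT genotype of C2C12, were grown in serum-rich medium, expressed eGFP from the plasmid and were selected in puromycin. The libraries numbered 1 and 2 are labelled as batches 1 and 2, so that each batch held 1 library of each group. The libraries of a group came from different passages of 1 selected stable line, so p-values measure the spread between passages, and the shRNA and the selected line cannot be told apart. With 2 libraries against 2, an exact permutation test of a single gene cannot give a p below 0.333, and tests are therefore given from the model fitted across all genes.

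Intermediate filaments are rope-like polymers of elongated proteins that pair through a central coiled coil. Vimentin and desmin (type III) and nestin, the neurofilament proteins and synemin (type IV) form filaments in the cytoplasm, and in muscle cells the vimentin and nestin network of dividing myoblasts gives way to a desmin network that holds the myofibrils in register. The lamins (type V) form the meshwork under the inner nuclear membrane, and *Lmna* encodes lamins A and C, whose mutations cause muscular dystrophy and cardiomyopathy. HnRNP L, the product of *Hnrnpl*, is an RNA-binding protein that prefers stretches of CA repeats and takes part in splicing.

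The 300 bases around the start of *Vim*, *Des* and *Nes* (250 before the start and 50 from it) are shown because these genes are the most abundant cytoplasmic member and a pair of the members that fell in knockdown. The sequences are those of RefSeq on GRCm38.p6, which is not the build of the mapped reads, at chr2:13574061-13574360, chr1:75360042-75360341 and chr3:87970843-87971142, all on the plus strand. Capitals mark the TATA box (TATAAA) and E-boxes, 6-letter elements that start with CA and end with TG, which basic helix-loop-helix factors of the MyoD family can bind.
*Vim* promoter: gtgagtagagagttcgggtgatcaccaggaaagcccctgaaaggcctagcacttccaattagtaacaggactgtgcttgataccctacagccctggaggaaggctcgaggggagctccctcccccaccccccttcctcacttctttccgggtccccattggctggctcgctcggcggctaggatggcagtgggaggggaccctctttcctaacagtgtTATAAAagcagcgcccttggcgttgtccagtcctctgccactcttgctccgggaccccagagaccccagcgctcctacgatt
*Des* promoter: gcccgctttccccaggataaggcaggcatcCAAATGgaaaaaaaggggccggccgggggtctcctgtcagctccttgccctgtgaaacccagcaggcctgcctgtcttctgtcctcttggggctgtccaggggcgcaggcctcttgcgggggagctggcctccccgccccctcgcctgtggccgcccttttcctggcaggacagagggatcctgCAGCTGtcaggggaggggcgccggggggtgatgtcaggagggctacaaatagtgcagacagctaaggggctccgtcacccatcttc
*Nes* promoter: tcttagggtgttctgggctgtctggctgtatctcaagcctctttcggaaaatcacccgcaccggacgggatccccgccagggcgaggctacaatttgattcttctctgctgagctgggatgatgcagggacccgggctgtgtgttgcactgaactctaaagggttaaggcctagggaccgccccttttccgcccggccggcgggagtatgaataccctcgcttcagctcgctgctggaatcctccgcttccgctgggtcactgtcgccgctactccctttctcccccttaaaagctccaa
*Des* held an E-box (CANNTG) at 220 and at 36 bases before the start. The letters of the nearer one, printed in capitals above, are those most often linked with MyoD and are counted apart as the MyoD form. *Vim* held a TATA box at 32 bases before the start and no E-box, and *Nes* held neither. Both strands were searched in 32851 promoters of this length, of which 72.3% held an E-box, 16.3% held the MyoD form and 13.6% held a TATA box. The GC box (GGGCGG), present in 35.7% of promoters, was found in *Des* and *Nes*. The MEF2 site (3.2% of promoters) and the CArG box (1.6%) were in none of these 3 windows. A match of this kind describes the letters of the window only.

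CA repeats were read from GRCm39 on the transcribed strand of *Des*, *Vim*, *Nes*, *Lmna* and *Lmnb2*, because hnRNP L binds such stretches. The whole annotated span of a gene over all its transcripts was read (24713 bases in *Des*). A run may thus lie outside the span of the canonical transcript. *Nefl*, *Nefm* and *Lmnb1* entered the count over all tested genes below, but their own repeats were not listed. *Synm* was not among the tested genes. The members shown here are therefore a part of the family, and repeats were not compared with the response to knockdown. The longest run in *Des*, *Vim* and *Lmna* is printed with its flanks, and the run is in capitals. All 3 runs lie in introns, at chr1:75341004-75341069 (plus strand), chr2:13585903-13585984 (plus strand) and chr3:88405446-88405529 (minus strand).
*Des* intron: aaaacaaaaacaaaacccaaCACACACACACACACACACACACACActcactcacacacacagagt
*Vim* intron: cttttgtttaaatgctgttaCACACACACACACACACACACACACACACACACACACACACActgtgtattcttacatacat
*Lmna* intron: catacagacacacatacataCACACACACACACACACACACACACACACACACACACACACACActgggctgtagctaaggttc
The runs are 26, 42 and 44 bases long. *Lmna* held 21 runs of at least 8 bases and 92 copies of ACACACA (3.08 per kb), *Vim* held 2 runs and 26 copies (2.92 per kb), and *Des* held 6 runs and 24 copies (0.971 per kb). *Lmnb2* held 7 runs and 16 copies (0.937 per kb). *Nes* held no such run and 1 copy (0.107 per kb). Such a run was present in 78.9% of the 8662 tested genes with a position, and the median was 0.581 copies of ACACACA per kb.

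The libraries held between 1229424 and 1676911 counted reads, which were 56.5 to 57.84% of all reads, and a count of 0 (limit of 3 reads) allows a level of up to 2.44 CPM in the shallowest library. *Hnrnpl* was the targeted gene. It had 358 and 656 reads in scrambled 1 and 2 and 242 and 258 reads in knockdown 1 and 2, and it fell by 0.78 on the log2 scale (SE 0.18; edgeR adjusted p = 0.0112). The *Hnrnpl* call was lost without scrambled 2 (−0.48, edgeR adjusted p = 0.194), without knockdown 1 (−0.62, edgeR adjusted p = 0.15) and in DESeq2 with a parametric fit (−0.78, adjusted p = 0.0567). Among the markers fixed for the labelled cell type, *Myf5* had 157, 190, 158 and 113 reads in scrambled 1 and 2 and knockdown 1 and 2, whereas *Pax7* had none and *Myod1* had 1 read in all 4 libraries together.

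Of the 9 members, 8 had enough reads for testing, and *Synm* had 0 reads in each library. *Des*, *Nes* and *Nefl* fell in knockdown, no member rose, and the other 5 did not pass the test. A gene was called at an edgeR adjusted p under 0.05, a log2 fold change beyond 0.5 in size and a mean normalized count over 10. Over all 8670 genes tested, 5.55% were called, 3.22% lower and 2.33% higher, so 3 of 8 is a larger share than in the whole table. The members were chosen with earlier results of these data known, so this share describes the list and is no test of it. With the parametric fit of DESeq2, 0 members were called. The log2 fold change was below 0 in 7 of 8 members, with a median of −0.46. Over all genes tested it was below 0 in 50.1%, with a median of 0.00. Before adjustment, 4 of 8 members, all below 0, and 21.8% of all genes tested had a p under 0.05. The sizes differed widely within the family, from −1.04 in *Nefl* to 0.26 in *Lmnb2*, and the genes with the most reads, *Vim* and *Lmna*, were among those that were not called. Mitochondrially encoded genes took 5.73 and 5.43% of the counted reads in scrambled 1 and 2, against 7.30 and 6.70% in knockdown 1 and 2. With these genes and *Rn18s* left out before normalization, *Des*, *Nes* and *Nefl* were called with log2 fold changes of −0.56, −0.60 and −1.04. In bulk RNA, fewer cells of a type and less RNA per cell cannot be told apart.

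**Figure D1:**
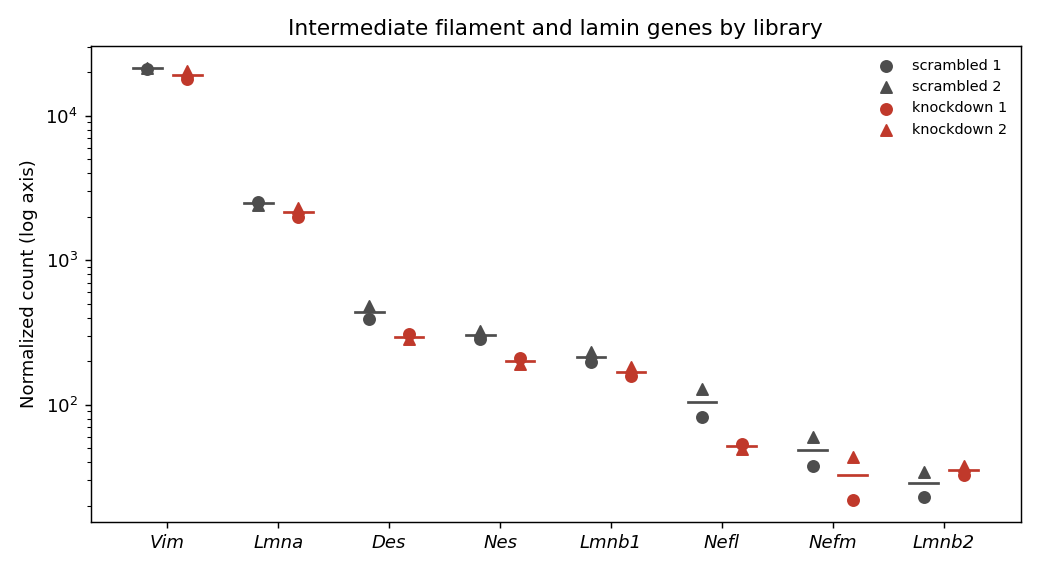
Normalized count (log axis) of the 8 members with reads, in scrambled 1 and 2 (grey) and knockdown 1 and 2 (red), with circles for library 1, triangles for library 2 and a bar at the mean of each group. Knockdown lies below scrambled without overlap in *Vim*, *Lmna*, *Des*, *Nes*, *Lmnb1* and *Nefl*, while the groups overlap in *Nefm* and *Lmnb2*. Of these, *Vim*, *Lmna* and *Lmnb1* were not called. How many of all genes tested lie apart in this way was not counted, so no result about the members is drawn from it.

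Levels were compared between genes as TMM-scaled CPM per kb of the transcript that GENCODE marks as canonical, written below as CPM per kb. The order was the same in both groups down to *Nefl*, and it began with *Vim*, at 6937 ± 90.9 CPM per kb in scrambled and 6231 ± 566 CPM per kb in knockdown (SD, n = 2). *Vim* ranked between 17 and 19 of 8662 genes in the 4 libraries. *Lmna* followed at 514 ± 14.7 and 446 ± 47.1 CPM per kb, *Des* at 99.1 ± 14.5 and 67.2 ± 4.03 CPM per kb, and *Lmnb1* at 48.9 ± 5.82 and 38.6 ± 3.66 CPM per kb in scrambled and knockdown. *Nes* stood at 35.5 ± 2.91 and 23.4 ± 1.53 CPM per kb, and *Nefl* at 21.8 ± 6.81 and 10.7 ± 0.694 CPM per kb. The lowest were *Nefm* at 10.4 ± 3.32 and 6.95 ± 3.22 CPM per kb and *Lmnb2* at 6.03 ± 1.7 and 7.36 ± 0.67 CPM per kb. Neighbours in this order did not overlap within a group except *Nefm* and *Lmnb2* in knockdown, where *Nefm* ranged from 4.68 to 9.22 and *Lmnb2* from 6.89 to 7.84 CPM per kb. The order over the 4 libraries was the same with the longest annotated transcript. A direct RNA read stands for 1 molecule, and in normalized counts, which are not divided by length, *Nes* lay above *Lmnb1* in each library.

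*Vim*, which encodes vimentin, the type III filament protein of mesenchymal cells and myoblasts, lies at chr2:13578738-13587639 on GRCm39 and has 9 exons in its canonical transcript. It had 20181 and 25586 reads in scrambled 1 and 2 and 17993 and 17445 reads in knockdown 1 and 2, or normalized counts of 21130, 21525, 17926 and 20388. Both knockdown libraries were lower than both scrambled libraries. The log2 fold change was −0.15 (SE 0.16; 95% interval −0.48 to 0.17; edgeR adjusted p = 0.61), and it was −0.06 without knockdown 1 and −0.25 without knockdown 2. *Vim* held most of the reads of the cytoplasmic members. Its share was 96.4% (95% exact interval 96.1 to 96.6%) in scrambled 1 and 95.6% (95.3 to 95.8%) in scrambled 2, against 96.8% (96.5 to 97.0%) in knockdown 1 and 97.3% (97.0 to 97.5%) in knockdown 2. These intervals cover counting error only.

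*Des*, which encodes desmin, the type III filament protein of muscle, lies at chr1:75320511-75345223 and has 9 exons in its canonical transcript. It had 373 and 571 reads in scrambled 1 and 2 and 309 and 242 reads in knockdown 1 and 2. In normalized counts these were 391 and 480 in scrambled, against 308 and 283 in knockdown, and the groups did not overlap. The mean fell by 32.2%, from 435 ± 63.5 to 295 ± 17.7 normalized counts (SD, n = 2), and the log2 fold change was −0.56 (SE 0.15; edgeR adjusted p = 0.0308). The difference was −0.34 within batch 1 and −0.76 within batch 2 on the log2 scale. Genes tested on chromosome 1 had a median log2 fold change of 0.19, and *Des* was at −0.75 once chromosome medians were removed (edgeR adjusted p = 0.00534). Of 23 tested genes within 1 Mb of *Des*, 5 were below 0 and the median log2 fold change was 0.24. Among these neighbours, 1 was called lower and 1 higher by edgeR, and 5 had an unadjusted p under 0.05. The *Des* call was lost with batch as a block (−0.55, edgeR adjusted p = 0.0526). It was also lost without scrambled 2 (−0.41), without knockdown 1 (−0.63) or without knockdown 2 (−0.50). In DESeq2, *Des* passed with a local dispersion fit (adjusted p = 0.0456) and not with a parametric fit (adjusted p = 0.208).

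The ratio of *Vim* to *Des* reads was 54.1 in scrambled 1, 44.8 in scrambled 2, 58.2 in knockdown 1 and 72.1 in knockdown 2, which places both knockdown libraries above both scrambled ones. Of 10 markers of differentiating myocytes, 6 had 0 reads in all libraries (*Myog*, *Mymk*, *Mymx*, *Myh3*, *Actc1* and *Ckm*), 2 were tested, and none was called or had an unadjusted edgeR p under 0.05. Their summed level was 21.6 and 16.7 CPM in scrambled, against 9.46 and 19.5 CPM in knockdown. The most counted of them, *Acta1* (skeletal alpha-actin), had 16, 9, 7 and 9 reads and *Tnnc1* (slow troponin C) had 11, 13, 2 and 9 reads, in the order scrambled 1 and 2, knockdown 1 and 2. Of 5 myoblast markers, 3 were tested, and *Cdh15* (M-cadherin) and *Chrna1* (the muscle acetylcholine receptor alpha subunit) fell. *Cdh15* had 113, 152, 25 and 14 reads (log2 fold change −2.55, SE 0.24; edgeR adjusted p = 2.03e-06) and *Chrna1* had 255, 409, 120 and 78 reads (−1.53, SE 0.18; edgeR adjusted p = 3.40e-05). The summed level of the 5 myoblast markers was 378 and 448 CPM in scrambled, against 220 and 167 CPM in knockdown, and its part in the *Des* result was not tested.

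*Nes*, which encodes nestin, the large type IV protein that co-assembles with vimentin in progenitor cells and myoblasts, lies at chr3:87878385-87887758. It had 274 and 383 reads in scrambled 1 and 2 and 211 and 164 reads in knockdown 1 and 2. The normalized counts were 287 and 322 in scrambled, against 210 and 192 in knockdown, so that the groups stood apart. The mean fell by 34.0%, from 305 ± 25 to 201 ± 13.1 normalized counts (SD, n = 2), with a log2 fold change of −0.60 (SE 0.15; edgeR adjusted p = 0.0227). It was −0.45 within batch 1 and −0.75 within batch 2. Genes tested on chromosome 3 had a median of 0.10, and *Nes* was at −0.70 with chromosome medians removed (edgeR adjusted p = 0.0104). The call was lost without scrambled 2 (−0.52, edgeR adjusted p = 0.157), without knockdown 1 (−0.67, edgeR adjusted p = 0.0803) or without knockdown 2 (−0.54, edgeR adjusted p = 0.102), and in DESeq2 with a parametric fit (adjusted p = 0.216) but not with a local fit (adjusted p = 0.048). *Des* and *Nes* kept nearly the same ratio of reads in the 4 libraries, 1.36 and 1.49 in scrambled, against 1.46 and 1.48 in knockdown.

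*Nefl*, which encodes the light neurofilament protein on which the heavier neurofilament subunits assemble, lies at chr14:68321268-68326544 and has 4 exons in its canonical transcript. It had 78 and 152 reads in scrambled 1 and 2 and 54 and 42 reads in knockdown 1 and 2. In normalized counts these were 81.7 and 128 in scrambled, against 53.8 and 49.1 in knockdown, without overlap, and scrambled 2 stood well above scrambled 1. The mean fell by 50.9%, from 105 ± 32.7 to 51.4 ± 3.33 normalized counts (SD, n = 2), and the log2 fold change was −1.04 (SE 0.23; edgeR adjusted p = 0.00895). It was −0.60 within batch 1 and −1.38 within batch 2. The call was lost without scrambled 2 (−0.67, edgeR adjusted p = 0.169), without knockdown 1 (−1.11, edgeR adjusted p = 0.0663) or with chromosome medians removed (−0.68, edgeR adjusted p = 0.126), and in DESeq2 with a parametric fit (adjusted p = 0.183) but not with a local fit (adjusted p = 0.0421).

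*Nefm*, which encodes the medium neurofilament protein, lies at chr14:68320039-68362305 on the strand opposite to *Nefl*. It had 36 and 71 reads in scrambled 1 and 2 and 22 and 37 reads in knockdown 1 and 2. In normalized counts these were 37.7 and 59.7 in scrambled, against 21.9 and 43.2 in knockdown, so that knockdown 2 lay above scrambled 1. The log2 fold change was −0.63 (SE 0.31; 95% interval −1.29 to 0.03; edgeR adjusted p = 0.254), and over the 13 alternatives tried it lay between −1.17 and −0.19. The canonical transcripts of *Nefl* and *Nefm* are 30.2 kb apart. A longer *Nefm* transcript of the annotation shares 1152 exonic bases with *Nefl* on the opposite strand, and the strand setting of the counting is not given in the sources used here, so reads in that stretch may have been set aside as ambiguous or given to either gene. The ratio of *Nefl* to *Nefm* reads was between 2.14 and 2.45 in scrambled 1, scrambled 2 and knockdown 1, and was 1.14 in knockdown 2.

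The 282 genes tested on chromosome 14, on which *Nefl* and *Nefm* lie, had a median log2 fold change of −0.36, and 32 of them (11.3%) were called lower and 1 higher. With chromosome medians removed, the values were −0.68 for *Nefl*, which was not called, and −0.27 for *Nefm*, against −0.75 for *Des* and −0.70 for *Nes*. The 4 tested genes within 1 Mb of *Nefl* were *Nefm*, *Dock5* (−0.48), *Kctd9* (−0.66) and *Cdca2* (−0.56). All 4 were below 0 on the log2 scale, none was called by edgeR (1, *Kctd9*, with an unadjusted p under 0.05), and their median was −0.59. The part of the low chromosome median in the *Nefl* result was not tested further.

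**Figure D2:**
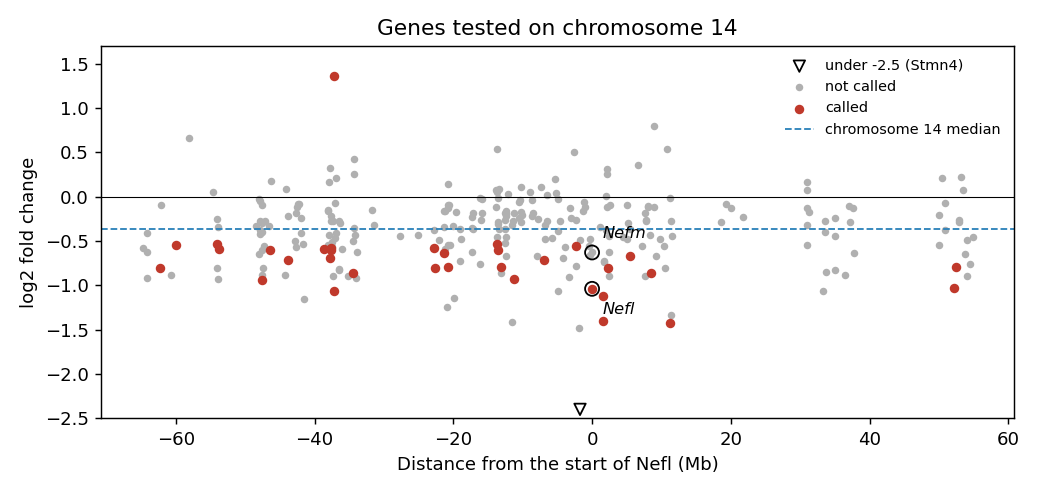
Log2 fold change (knockdown against scrambled) of the 282 genes tested on chromosome 14 by distance from the start of *Nefl* in Mb. Called genes are red, the dashed line is the median of the chromosome (−0.36), *Nefl* and *Nefm* are ringed, and the triangle at the lower edge stands for *Stmn4*, which had 13 and 19 reads in scrambled, against 0 in both knockdown libraries, and was under the limit on the mean count.

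*Nes*, *Nefl* and *Nefm* are best known from neural cells, and markers of neurons and glia were therefore counted. Of 9 neuron markers, 6 had 0 reads in every library (*Snap25*, *Syp*, *Map2*, *Rbfox3*, *Elavl3* and *Elavl4*), and *Gap43* and *Syt1* had at most 2 reads in any library. The remaining marker, *Tubb3* (class III beta-tubulin), had 150 and 149 reads in scrambled 1 and 2 and 20 and 18 reads in knockdown 1 and 2 (log2 fold change −2.77, SE 0.23; edgeR adjusted p = 4.82e-07). The summed level of the list, nearly all *Tubb3*, was 109 and 90.0 CPM in scrambled, against 15.3 and 15.5 CPM in knockdown. Glia markers summed to at most 2 reads in any library. *Synm*, the type IV gene of synemin, which links desmin filaments to the membrane, lies at chr7:67379908-67409527, and 0 reads allow up to 2.44 CPM in knockdown 2. The opposite-strand gene *Ttc23* shares 84 exonic bases with it and had 8, 15, 13 and 12 reads.

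*Lmna*, which encodes lamins A and C, lies at chr3:88387454-88417299 on the minus strand and has 12 exons in its canonical transcript. It had 2411 and 2882 reads in scrambled 1 and 2 and 1994 and 1974 reads in knockdown 1 and 2. The normalized counts were 2524 and 2425 in scrambled, against 1987 and 2307 in knockdown, each knockdown library lying below both scrambled ones. The log2 fold change was −0.21 (SE 0.14; 95% interval −0.50 to 0.09; edgeR adjusted p = 0.419), and it was −0.10 without knockdown 1 and −0.32 without knockdown 2. *Lmna* and *Nes* are 500.7 kb apart on chromosome 3. The 9 tested genes between them had a median log2 fold change of 0.05, with 4 below 0 and 5 above 0. None of these was called by edgeR, and 2 had an unadjusted p under 0.05.

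*Lmnb1*, which encodes the B-type lamin B1 that stays farnesylated and bound to the membrane, lies at chr18:56840590-56886496. It had 188 and 277 reads in scrambled 1 and 2 and 159 and 155 reads in knockdown 1 and 2. The normalized counts were 197 and 233 in scrambled, against 158 and 181 in knockdown, again without overlap. The log2 fold change was −0.35 (SE 0.16; 95% interval −0.68 to −0.01), with an unadjusted p of 0.0429 and an edgeR adjusted p of 0.212, and with 1 library left out it lay between −0.46 and −0.22. Its chromosome had a median log2 fold change of −0.28, and with chromosome medians removed *Lmnb1* was at −0.07 (edgeR adjusted p = 0.894). The 3′ end of *Lmnb1* shares 466 exonic bases with *Marchf3* on the opposite strand, which had 6, 12, 7 and 2 reads.

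*Lmnb2*, which encodes lamin B2, lies at chr10:80737037-80754110 on the minus strand and was the only tested member with a log2 fold change above 0. It had 22 and 41 reads in scrambled 1 and 2 and 33 and 32 reads in knockdown 1 and 2, and the groups overlapped in normalized counts (23.0 and 34.5 against 32.9 and 37.4). The log2 fold change was 0.26 (SE 0.30; 95% interval −0.36 to 0.88; edgeR adjusted p = 0.658), and with chromosome medians removed it was 0.02. With 1 library left out it ran from 0.02 (without scrambled 1) to 0.59 (without scrambled 2). Among the lamin reads, the share of *Lmna* was 92.0% in scrambled 1, 90.1% in scrambled 2, 91.2% in knockdown 1 and 91.3% in knockdown 2. Knockdown thus lay between the scrambled libraries. The ratio of *Lmna* to *Lmnb1* reads was 12.8, 10.4, 12.5 and 12.7 in the same order.

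**Figure D3:**
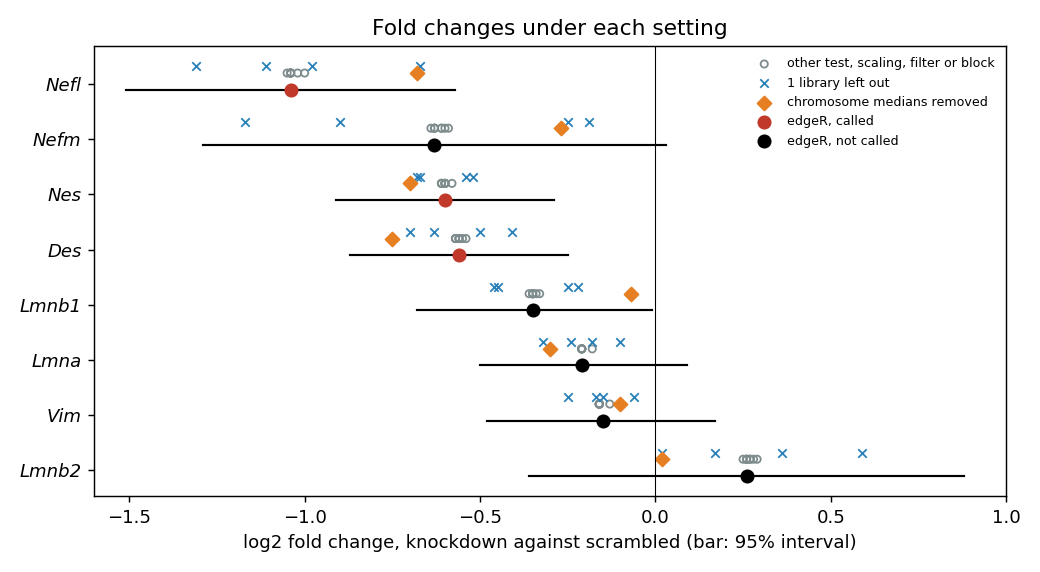
Log2 fold change (knockdown against scrambled) of each tested member. Large points are the edgeR values with their 95% intervals (red if called), open circles are other tests, scalings, filters or the block, crosses leave out 1 library each, and diamonds have chromosome medians removed. *Nefl*, *Nes* and *Des* stay below 0 under every setting shown, and removing chromosome medians moves *Nefl* from −1.04 to −0.68 and *Des* from −0.56 to −0.75.

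Other intermediate filament genes were scarce. Of 15 listed, 5 had 0 reads in every library (*Ina*, *Bfsp2*, *Krt8*, *Krt18* and *Krt20*), 2 were tested and none was called by edgeR or DESeq2, with 1 unadjusted p under 0.05. *Krt80*, a keratin, had 66 and 163 reads in scrambled 1 and 2 and 68 and 34 reads in knockdown 1 and 2, with a log2 fold change of −0.94 (SE 0.28; edgeR adjusted p = 0.0513). The difference was −0.03 within batch 1 and −1.79 within batch 2 on the log2 scale. It was called with batch as a block (−0.89, edgeR adjusted p = 0.0478), without scrambled 1 (−1.33, edgeR adjusted p = 2.93e-06), without a filter and with a filter of 10 counts. *Krt14* had 19, 7, 4 and 12 reads and overlapped between groups (−0.50, edgeR adjusted p = 0.673). *Prph*, the type III gene of peripherin, had 6 and 12 reads in scrambled, against 1 and 2 reads in knockdown and was too low to be tested.

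Proteins that link, fold or turn over filaments did not move as a group. Of 13 listed genes, 8 were tested, 1 was called lower and none higher, and the median log2 fold change was 0.32. *Hspb1*, a small heat shock protein, had 211 and 301 reads in scrambled 1 and 2 and 151 and 120 reads in knockdown 1 and 2, and it fell by 0.71 on the log2 scale (SE 0.16; edgeR adjusted p = 0.0104). The *Hspb1* call was lost in DESeq2 with a parametric fit (adjusted p = 0.157), without scrambled 2 (−0.61, edgeR adjusted p = 0.0863), without knockdown 1 (−0.76, edgeR adjusted p = 0.0628) and without knockdown 2 (−0.66, edgeR adjusted p = 0.0562). *Cryab*, the alphaB-crystallin chaperone of desmin, had 690 and 876 reads in scrambled, against 902 and 850 reads in knockdown (log2 fold change 0.37, SE 0.13; edgeR adjusted p = 0.108). It lies on chromosome 9, with a median of −0.37, and it was called higher once chromosome medians were removed (0.74, edgeR adjusted p = 0.00274). *Plec*, which encodes the linker plectin, had 206, 416, 391 and 315 reads (0.41, SE 0.18; edgeR adjusted p = 0.182) and was called higher without scrambled 2 (0.81, edgeR adjusted p = 0.00812).

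Partners of the lamins at the inner nuclear membrane and in the LINC complex, which ties the lamina to the cytoskeleton, had a median log2 fold change of 0.02. Of 19 listed genes, 15 were tested and none was called by edgeR or DESeq2, and 3 had an unadjusted p under 0.05. *Banf1*, which bridges DNA and lamin-binding proteins, had 2416 and 2884 reads in scrambled, against 1662 and 1634 reads in knockdown. Its log2 fold change of −0.48 (SE 0.14; edgeR adjusted p = 0.0497) was under the limit on size, and it was called without knockdown 2 (−0.58, edgeR adjusted p = 0.0213). *Tmpo*, which encodes the lamina-associated polypeptides 2, had 417, 462, 457 and 428 reads (0.21, SE 0.14; edgeR adjusted p = 0.401). Of 5 genes that process the lamin tail, 4 were tested and none was called by edgeR or DESeq2, with a median of −0.14 and 1 unadjusted p under 0.05. *Zmpste24*, the protease that matures prelamin A, was at 0.07 (edgeR adjusted p = 0.847) and *Fnta*, a subunit of farnesyltransferase, at −0.06 (edgeR adjusted p = 0.888).

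**Figure D4:**
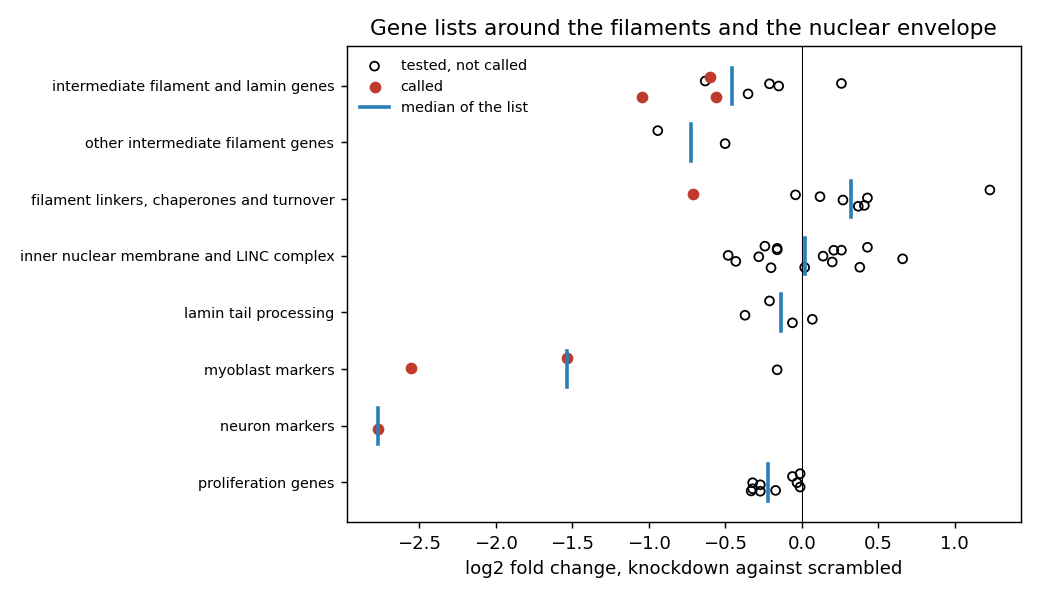
Log2 fold change (knockdown against scrambled) of each tested gene in 8 lists, red where called, with a blue bar at the median of each list and vertical scatter for legibility only. The members have a median of −0.46, the linkers and chaperones 0.32 and the inner nuclear membrane genes 0.02.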

How the data were processed

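Total RNA of 4 libraries was sequenced by nanopore direct RNA sequencing (SQK-RNA002 kit). Basecalling by the authors was with guppy, reads were aligned to GRCm39 with splice-aware minimap2 (2.17), and HTSeq (0.9.1) gave the reads per gene. The deposited files hold whole counts per gene, not normalized, together with the reads left unassigned, which were 42.16 to 43.5% of a library and were kept out of library sizes. The annotation release and strand setting of the counting are not given in the sources used here. Genes with near-identical copies can lose reads to the mapping quality limit, so their counts are uncertain.

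Of 56748 gene IDs, 56017 were matched to GENCODE vM39 for symbols and positions. Counts were tested with the quasi-likelihood test of edgeR 4.0.16 (R 4.3.3), with TMM factors and filterByExpr, group as the only term, all 4 libraries in 1 fit and Benjamini-Hochberg adjustment over 8670 genes. The script was tested on simulated counts. A normalized count is the count brought to the mean library size with its TMM factor, and CPM is the count per 1000000 counted reads of the library, without TMM, except that levels per kb are CPM scaled by TMM. The limits for a call (adjusted p 0.05, absolute log2 fold change 0.5, mean normalized count 10) are those of the study. Shares have exact (Clopper-Pearson) 95% intervals.

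The alternatives were the DESeq2 (1.42.0) Wald test with a local or a parametric fit, RLE or upper quartile factors, no filter or at least 10 counts in every library, mitochondrial genes and Rn18s left out, the replicate number as a block, chromosome medians removed, and each library left out in turn. The pairing of same-numbered libraries comes from the batch label, and their deviations from the group means had a correlation of 0.00152 over 4501 genes.

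The members and the 10 gene lists around them were chosen with earlier results of these data known. Named genes were the members, the targeted gene, every called gene of each list and the 2 others with the most reads, the nearest genes beside *Nefl*, and for each tested member the 2 genes with the nearest profile. Other genes were named to account for members of a list at 0 reads. *Prph*, *Stmn4*, *Mki67* and the genes that overlap a member (*Ttc23*, *Marchf3*) are outside this rule and were named after their values were seen. Promoter sequences are from RefSeq (GRCm38.p6), and no coordinate was moved between builds.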

Additional observations from a re-analysis of the deposited data

How the results depend on the processing

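The members called numbered 3 under 7 of 13 alternatives. The number was 2 with the replicate block, where *Nes* and *Nefl* were called, and 2 with chromosome medians removed, where *Des* and *Nes* were called. It was 0 with the parametric DESeq2 fit, and between 0 and 3 with 1 library left out (0 without scrambled 2 or knockdown 1, and 1, *Nefl*, without knockdown 2). With the block, *Des* was at −0.55 (edgeR adjusted p = 0.0526), *Krt80* was the 1 other filament gene called, and 484 genes were called in all. The pairing changed no other call among the members and the listed genes. With the parametric fit, *Des* was at −0.57, *Nes* at −0.61 and *Nefl* at −1.04 (DESeq2 adjusted p = 0.208, 0.216 and 0.183), and no linker gene was called (0). With chromosome medians removed, *Nefl* was at −0.68 and 2 linker genes, *Cryab* and *Hspb1*, were called. Without a filter, or with 10 counts in every library, 1 other filament gene was called, again *Krt80*. When any 1 library was left out, log2 fold changes ran between −0.70 and −0.41 for *Des*, −0.68 and −0.52 for *Nes*, and −1.31 and −0.67 for *Nefl*. The calls then ranged from 0 to 1 in each of the lists of other filament genes, linkers, inner nuclear membrane genes (*Banf1*), fibroblast markers (*Col3a1*) and proliferation genes (*Mki67*). Over all genes tested, 481 were called, against 228 and 115 with DESeq2 (local and parametric fit), 289 with chromosome medians removed, 612 without a filter and 194 to 433 with 1 library left out. Upper quartile factors gave 216 higher and 236 lower calls, against 202 and 279 with TMM. No tested member changed sign under any alternative. The cause of these differences was not tested. *Nefm* and *Lmnb2* had 22 to 71 reads per library.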

Other observations

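Several genes had nearly the same profile over the 4 libraries as a member. Likeness was measured as the distance between log2 normalized counts, each profile centred on its own mean, among 4501 genes with a mean over 50, and no test goes with it. For *Des*, the nearest were *Ube2e2* (distance 0.0171) and *Mtss1* (0.0482), and *Mtss1* was also among the 2 nearest to *Nes* (0.0565), beside *Pmm1* (0.0513). For *Nefl*, they were *Hes1* (0.179), a transcriptional repressor downstream of Notch, and *Col5a1* (0.179), a fibrillar collagen. *Hes1* was at −0.96 (edgeR adjusted p = 0.0161) and *Col5a1* at −1.02 (edgeR adjusted p = 0.0021). *Vim* lay nearest to *Tfpi* (0.0184) and *Atp5mc3* (0.0197), and *Lmna* to *Vbp1* (0.0161) and *Nedd8* (0.0223). *Nefm* lay nearest to *Nop56* (0.267) and *Upf3a* (0.275), *Lmnb1* to *Atad3a* (0.0442) and *Ubxn1* (0.0509), and *Lmnb2* to *Akap1* (0.0594) and *Midn* (0.0724).

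Proliferation and fibroblast markers were also counted beside the members. All 10 proliferation genes were tested and had log2 fold changes below 0, with a median of −0.22 and none called by edgeR or DESeq2 (2 with an unadjusted p under 0.05). Their summed level was 2027 and 2039 CPM in scrambled and 1854 and 1913 CPM in knockdown, and the most counted, *Birc5* and *Cdk1*, were at −0.01 and −0.03. *Mki67* was called lower without knockdown 2 (−0.72, edgeR adjusted p = 0.0406), against −0.27 with all 4 libraries. Of 5 fibroblast markers, *Thy1* and *Lum* had 0 reads, and *Col3a1* had 775, 718, 648 and 347 reads (−0.42, SE 0.18; edgeR adjusted p = 0.186). *Col3a1* was called lower without scrambled 2 (−0.63, edgeR adjusted p = 0.0338) or without knockdown 1 (−0.80, edgeR adjusted p = 0.0406).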
